A study of Homo sapiens with 4 samples.

Results

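The genes described here encode the translation initiation factors and the kinases that phosphorylate eIF2, chosen by gene symbol from a list of 44. Of these, 43 had at least 1 array probe that could be given the symbol (68 probes), and 41 passed the filter on dim probes, of 13038 genes that passed it and 24136 symbols on the array. EIF2S3 had no probe that could be named. The single probe of EIF5 was above background on 1 array of each group, and the single probe of EIF2B2 was flagged as a poor spot on 1 array, so neither entered the comparison.

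The arrays came from KYSE180, an established esophageal squamous cell carcinoma (ESCC) line, which was untreated as far as the labels state. RNA recovered from cytoplasmic lysates with an antibody to TIA1 (ribonucleoprotein immunoprecipitation, TIA1 RIP) was hybridized to 2 single-colour Agilent whole genome arrays, and total RNA of the same line to 2 more. The study used the comparison, together with sequencing of precipitated RNA, to list mRNAs held by cytoplasmic TIA1. GAPDH mRNA served as the reference for a transcript that TIA1 does not bind. Immunoprecipitates made with a control IgG were not analysed here, so binding to beads or to the antibody cannot be told apart from binding to TIA1, and all 4 arrays come from 1 cell line.

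Translation of most mRNAs begins when eIF4F, made of the cap-binding protein eIF4E, the scaffold eIF4G and the helicase eIF4A, brings an mRNA to a small ribosomal subunit that carries eIF3, eIF1, eIF1A and the eIF2 complex with initiator tRNA. Phosphorylation of eIF2 by any of its kinases turns eIF2 into an inhibitor of its own exchange factor, eIF2B, and lowers initiation. TIA1, an RNA-binding protein with a preference for U-rich stretches, gathers stalled mRNAs together with eIF3, eIF4 factors and small ribosomal subunits into stress granules when eIF2 is phosphorylated, so these genes encode the proteins that TIA1 works beside.

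Many mRNAs of the translation machinery begin with a C followed by an unbroken stretch of C and T, the TOP start, to which LARP1 and, in stress, TIA1 and its relative TIAR have been linked. The annotated start sites were therefore read on GRCh37 (canonical GENCODE transcripts). A start was counted where the first base of the transcript was C and opened a run of at least 5 bases of C or T on the transcript strand. Of the 44 members, 12 (27.3%) had such a start, against 4.64% of 19528 protein-coding transcripts, and 9 of the 12 encode subunits of eIF3. The other members with a TOP start were EIF2S3, EIF4A2 and EIF4B. The first 20 bases are shown for 7 of the eIF3 subunits and the 2 eIF4 factors with a TOP start, since 9 of the 13 eIF3 genes share this start, with the run in capitals. A further 2 eIF3 genes with a TOP start, EIF3E and EIF3H, are named only.
EIF3A (chr10:120840310-120840329, minus strand): CCTTTCCgtctctggccggc
EIF3C (chr16:28722785-28722804, plus strand): CTCTCTCggcgtttccgctg
EIF3D (chr22:36925194-36925213, minus strand): CTCTTTTCCTggtttctcaa
EIF3F (chr11:8008884-8008903, plus strand): CTTCTTTCTCgacaagatgg
EIF3K (chr19:39109828-39109847, plus strand): CTCTTCCTgttcccgtcctt
EIF3L (chr22:38245426-38245445, plus strand): CTTTCCggcggtgctcgcaa
EIF3M (chr11:32605377-32605396, plus strand): CTTTTCCggtcggcgtggtc
EIF4A2 (chr3:186501366-186501385, plus strand): CTTTTCagtcgggcgctgag
EIF4B (chr12:53400240-53400259, plus strand): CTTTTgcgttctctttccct

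The remaining eIF3 subunits began otherwise, as did EIF2AK1, the member furthest above total RNA replicate 1, and the reference GAPDH.
EIF3B (chr7:2394462-2394481, plus strand): atggctgggctgtagccgtc
EIF3G (chr19:10230556-10230575, minus strand): ctctggccgggcttgggctg
EIF3I (chr1:32688008-32688027, plus strand): actcacgttgcggccttcct
EIF3J (chr15:44829345-44829364, plus strand): aactcctcgctagctctccc
EIF2AK1 (chr7:6098787-6098806, minus strand): acttccgggtcggacggcgc
GAPDH (chr12:6643683-6643702, plus strand): gctctctgctcctcctgttc

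TIA1 is also known for contacts with U-rich 3′ untranslated regions (3′ UTRs), so runs of at least 5 U were searched there on the transcript strand. Of the 44 members, 34 held at least 1 such run, and 10 held none. Over all protein-coding transcripts 75.4% held 1, with a median of 2.90 runs per kb against 3.02 among the members. The window of 24 bases around the longest run is shown for the member furthest above total RNA replicate 1 (EIF2AK1), the member furthest below it (EIF3A), the cap-binding protein EIF4E and the scaffold EIF4G1, with the run in capitals and T written for U. The 3′ UTR of GAPDH held no run of this length, nor did those of EIF3C, EIF3D, EIF3G, EIF3K, EIF2B3, EIF2B4, EIF2B5, EIF4E2, EIF4EBP1 and EIF6. The 3′ UTRs of these 10 members were short, from 34 (EIF3K) to 430 bases (EIF4EBP1), against a median of 1068 over all protein-coding transcripts. A match of this kind describes the letters and is not a binding site.
EIF2AK1 (chr7:6064249-6064272, minus strand): gaatgtaaaTTTTTaatctttatt
EIF3A (chr10:120793380-120793403, minus strand): tgtgTTTTTTTTTTTTTTTaacca
EIF4E (chr4:99801983-99802006, minus strand): tcaTTTTTTTTTTTTTTTTTggct
EIF4G1 (chr3:184052986-184053009, plus strand): tggggtccTTTTTTTTattttctg

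The arrays were not equal. The TIA1 RIP arrays had a 75th percentile of spot signal of 1514 and 1271, and total RNA had 714 (replicate 1) and 69.9 (replicate 2), and 45.8%, 48.4%, 47.6% and 32.2% of the spots were well above background in the same order. Members were above background in number 42, 42, 43 and 35. The TIA1 RIP arrays correlated at r = 0.932 over all genes and the total RNA arrays at r = 0.733 (13038 genes, which are not independent replicates). The difference between replicates had an SD of 0.54 over the members for TIA1 RIP and of 1.86 for total RNA, on the log2 scale. Levels below are log2 signals minus the 75th percentile of the array, and every difference is TIA1 RIP minus total RNA on that scale. They are shares of the RNA on an array and not amounts per cell. A difference thus sets the share of an mRNA in a precipitate from cytoplasmic lysate against its share in total RNA. Since the total RNA arrays stood apart from each other, the main results are given against the mean of both and against each of them. Of 9 markers of squamous epithelium, 8 were above background on all 4 arrays (the other, DSC3, on all but total RNA replicate 2). Of 8 markers of blood, fibroblasts, endothelium, muscle and liver, 5 were above background on none, COL1A1 was on 3, and PTPRC and DES were on all 4.

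None of the 41 members was called between TIA1 RIP and total RNA by limma at an adjusted p of 0.05, and neither was any of the 13038 genes (0%). The lowest adjusted p was 0.776 among the members and 0.59 among all genes. At an unadjusted p of 0.05, limma took 1 member (EIF3C, lower) and 668 genes, 144 higher (1.1%) and 524 lower (4.02%). Without total RNA replicate 1, with its lone partner taken to vary like the TIA1 RIP arrays, limma called 12 members higher and 6 lower, and 1849 and 2050 of all genes. Nothing in the labels says that the arrays came from separate cultures, so these p-values measure only the spread between the arrays. The values below are therefore measured differences, none of which passed the test across all genes on the 4 arrays.

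The median difference of the 41 members was 0.26, beside -0.04 over all genes, and it turned to -0.20 under a correction for GC content, to -0.42 over probes detected on all arrays and to -0.24 with no filter on dim probes. It also turned with the total RNA array used. It was -0.48 against total RNA replicate 1, where the median of all genes was 0.07, and 0.52 against total RNA replicate 2, where that of all genes was -0.29. Against replicate 1, 25 members lay below it on both TIA1 RIP arrays (35.5% of all genes did so) and 7 lay above it on both (41.2%). Over all 4 arrays the groups did not overlap for 21 members, of which 15 were lower in TIA1 RIP (21.7% of all genes) and 6 higher (19.4%). Of those 15, 8 encode subunits of eIF3.

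**Figure D1:**
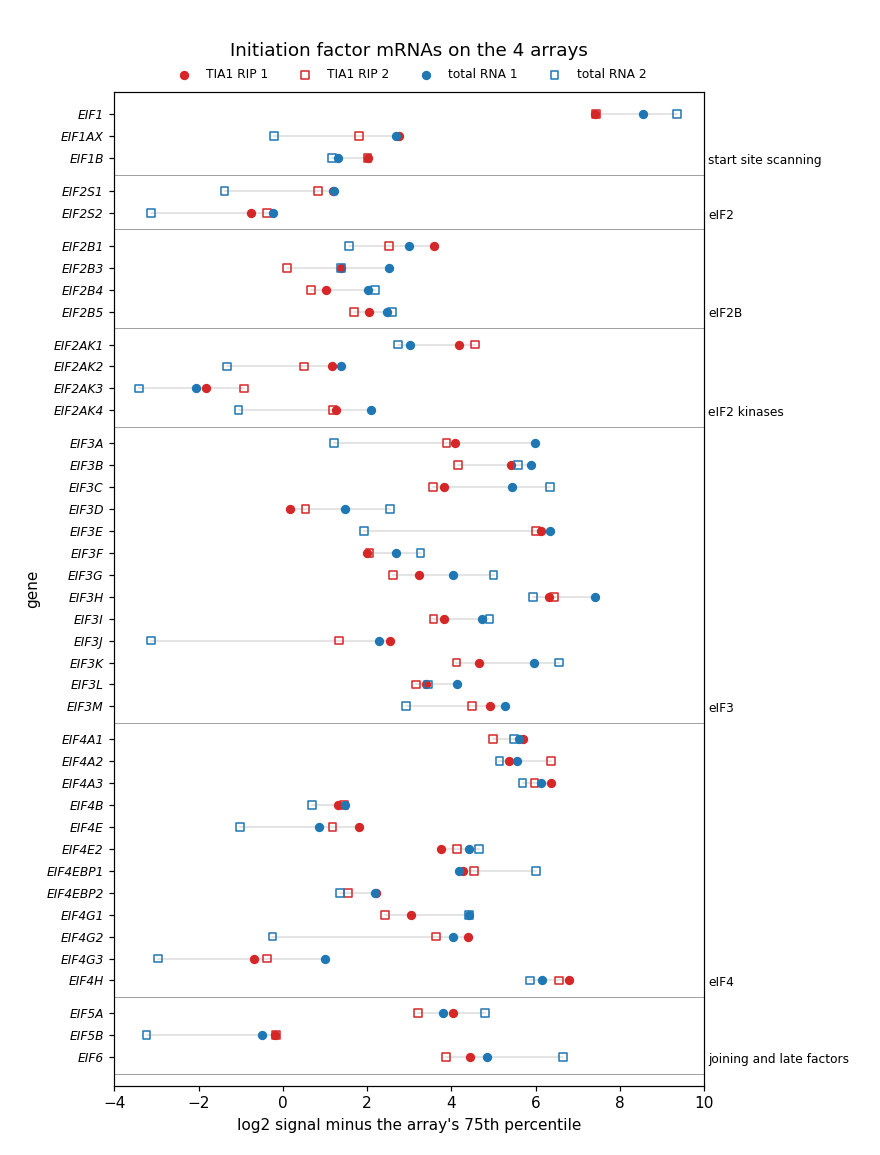
Each row is 1 of the 41 members measured, ordered by role, and the horizontal axis gives the log2 signal minus the 75th percentile of the array. Red symbols are the TIA1 RIP arrays and blue symbols the total RNA arrays, filled circles for replicate 1 and open squares for replicate 2. The blue square lies far to the left of the blue circle for members such as EIF3J (-3.12 against 2.29) and EIF4G2 (-0.25 against 4.03). Both red symbols lie left of the blue circle in 12 of the 13 eIF3 rows, as they would for 35.5% of all genes.

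The eIF3 complex holds the small ribosomal subunit ready for an mRNA and for eIF4G, and all 13 of its subunit genes were measured. Every one lay below total RNA replicate 1 by the mean of the TIA1 RIP arrays, from -0.28 (EIF3E) to -1.99 (EIF3A), as did 46.9% of all genes. On both TIA1 RIP arrays 12 lay below it (35.5% of all genes). The exception was EIF3J, a loosely attached subunit, with 2.54 and 1.33 on the TIA1 RIP arrays around 2.29 on total RNA replicate 1. The median of the 13 was -1.02 against replicate 1. With normexp background correction, with scaling over detected probes and with the GC correction all 13 again lay below replicate 1 (46.5%, 45.7% and 48.6% of all genes). Under quantile normalization 12 of 13 did (44.7% of all genes, eIF3 median -0.85), the exception being EIF3E at 0.20. Against total RNA replicate 2 the subunits split, with 8 below it and 5 above, near the share of all genes below it (55.1%). Their median of -0.79 turned to 0.10 with normexp and to 0.30 under quantile normalization. The median of all genes against replicate 2 was -0.29, or -0.33 with normexp and 0.29 under quantile normalization.

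The 8 eIF3 genes whose groups did not overlap were EIF3B, EIF3C, EIF3D, EIF3F, EIF3G, EIF3I, EIF3K and EIF3L, all lower in TIA1 RIP. EIF3C, a core scaffold subunit, was the lowest member on the means, with 3.82 and 3.57 on the TIA1 RIP arrays against 5.45 and 6.35 on the total RNA arrays. Both TIA1 RIP values lay below both total RNA values, with a difference of -2.20 ± 0.81 (limma, SE, n = 2 per group), an unadjusted p of 0.0289 and an adjusted p of 0.776. Its 2 probes gave -1.80 and -2.60, and both may also read EIF3CL, a near-identical neighbouring copy, so the value may belong to either gene. EIF3K, a peripheral subunit, had 4.66 and 4.12 against 5.96 and 6.56, a difference of -1.86 ± 0.80 (SE) with an adjusted p of 0.776 by limma.

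EIF3D, the subunit that can itself contact the mRNA cap, had 0.17 and 0.54 against 1.47 and 2.55 over its 2 probes. The probe that was above background on all 4 arrays gave -1.07 on the means and -1.24 against replicate 1. The average over both probes, -1.66, is not a measured size. The other was not well above background on either TIA1 RIP array and was at least 2.83-fold lower there. For this bound the total RNA mean was set against the higher of the probe's own signal and the detection floor of each array (mean -3.30). That probe had -3.05 on total RNA replicate 1 and -0.55 on replicate 2, so the bound rests mostly on replicate 2. EIF3G, an RNA-binding subunit that takes part in scanning, had 3.23 and 2.61 against 4.04 and 5.004. EIF3B (-0.94), EIF3F (-0.94), EIF3I (-1.11) and EIF3L (-0.51) completed this set. Their values were -1.10, -0.65, -1.02 and -0.86 against replicate 1, and -0.79, -1.24, -1.21 and -0.17 against replicate 2.

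The other 5 subunits, EIF3A, EIF3E, EIF3H, EIF3J and EIF3M, had total RNA values on both sides of TIA1 RIP. EIF3A, the largest subunit, had 4.09 and 3.89 on the TIA1 RIP arrays against 5.98 and 1.22 for total RNA. It was the furthest member below replicate 1 (-1.99) and lay 2.77 above replicate 2. A second EIF3A probe was above background on no array and was left out. EIF3E, known as a site of viral integration in mammary tumours, had 6.13 and 6.01 against 6.35 and 1.92. The TIA1 RIP arrays lay at -0.22 and -0.34 against total RNA replicate 1 and at 4.21 and 4.09 against replicate 2, which gave a mean difference of 1.93 ± 1.40 (limma SE, adjusted p = 0.776). A second probe of EIF3E was likewise above background nowhere. EIF3J had a difference on the means of 2.35 ± 1.66 (limma SE, adjusted p = 0.776), with -0.36 against total RNA replicate 1, and was not above background on replicate 2 at -3.12. With normexp it was 1.11, below EIF3E (2.24) and EIF4G2 (1.86). EIF3H, a subunit often amplified in carcinomas, had 6.33 and 6.43 against 7.40 and 5.93, and EIF3M, a subunit with a PCI domain, had 4.91 and 4.49 against 5.26 and 2.93.

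**Figure D2:**
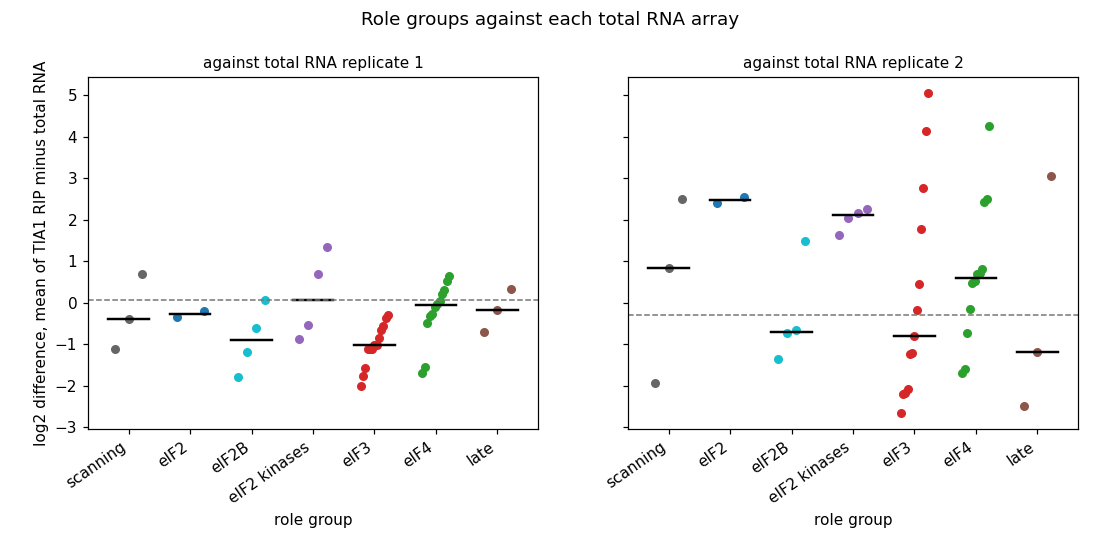
Each point is 1 member, and the vertical axis gives the mean of the TIA1 RIP arrays minus 1 total RNA array on the log2 scale, replicate 1 on the left and replicate 2 on the right. Black bars are group medians and the dashed line is the median of all genes (0.07 and -0.29). All 13 eIF3 points lie below 0 on the left (12 of 13 under quantile normalization), where 46.9% of all genes do. The eIF2, kinase and eIF4 medians move up on the right.

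The eIF4 group, which recruits the mRNA through its cap, lay closer to the rest of the genes than eIF3 did against total RNA replicate 1. Against replicate 2 it did so only with the GC correction. Its 12 members had a median of 0.28 on the means and of -0.06 against total RNA replicate 1 (0.12 under quantile normalization), where 4 lay below it on both TIA1 RIP arrays and 3 above it on both. Against replicate 2 the median was 0.60, which lay 0.90 above that of all genes, and the eIF3 median lay -0.50 from it. The eIF3 and eIF4 medians were -1.02 and -0.06 against replicate 1. Against replicate 2 they were -0.79 and 0.60, but 0.10 and 0.72 with normexp and -0.40 and 0.12 with the GC correction. There the median of all genes was -0.33 with normexp and 0.11 with the GC correction. No test was made between these groups, since genes are not replicates of a condition.

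Within eIF4F the cap-binding protein and the scaffold lay on opposite sides. EIF4E had 1.80 and 1.18 on the TIA1 RIP arrays against 0.85 and -1.01, so both TIA1 RIP values lay above both total RNA values, with a difference of 1.57 ± 0.93 (limma SE, adjusted p = 0.776), or 0.28 with the GC correction. Its 3 probes gave 0.61 to 0.70 against replicate 1, but 0.33, 1.91 and 2.48 on the means. The probe at 0.33 overlapped between the groups, with 0.11 on TIA1 RIP replicate 2 and 0.43 on total RNA replicate 2. The probe at 2.48 was not above background on total RNA replicate 2 (-3.28). EIF4E2, a cap-binding homologue that takes part in repression, had 3.76 and 4.14 against 4.43 and 4.67, without overlap in the other direction. EIF4G1, the main scaffold, had 3.04 and 2.43 against 4.42 and 4.42, a difference of -1.69 ± 0.78 (limma SE, adjusted p = 0.776) that was the same against either total RNA array. This made EIF4G1 the lowest eIF4 member on the means.

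EIF4G2 (DAP5), a scaffold without the cap-binding protein's docking site, had 4.39 and 3.64 against 4.03 and -0.25, and was the highest eIF4 member on the means (2.12) while its mean lay at -0.02 against total RNA replicate 1. Of its 2 probes, 1 was not above background on total RNA replicate 2 (-1.84). EIF4G3, the second full scaffold, had -0.68 and -0.37 against 1.01 and -2.97 from the 1 of its 3 probes that was kept, and was not above background on replicate 2. Against total RNA replicate 1 the values of the 3 scaffold genes were thus -1.69, -0.02 and -1.54 for EIF4G1, EIF4G2 and EIF4G3.

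The helicase genes differed little. EIF4A1 had 5.71 and 4.98 against 5.61 and 5.49, EIF4A2 had 5.37 and 6.37 against 5.57 and 5.14, and EIF4A3, which belongs to the exon junction complex in place of eIF4F, had 6.37 and 5.97 against 6.13 and 5.69. The groups overlapped for all 3, and the differences on the means ran from -0.21 to 0.52. The helicase partners EIF4B (1.31 and 1.45 against 1.48 and 0.69) and EIF4H (6.80 and 6.56 against 6.16 and 5.87) lay apart, in that EIF4H was higher than both total RNA arrays on both TIA1 RIP arrays, by 0.40 to 0.93, and both of its probes were higher on the means (0.55 and 0.78). EIF4B overlapped.

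The inhibitors of eIF4E, which mTOR phosphorylates, showed no common direction. EIF4EBP1 had 4.28 and 4.54 against 4.19 and 6.002, a mean difference of -0.69 with 0.22 against replicate 1. EIF4EBP2 had 2.21 and 1.54 against 2.19 and 1.36, a mean difference of 0.10. The groups overlapped for both.

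All 4 eIF2 kinases were higher than total RNA on the means, from 0.71 to 1.496 (median 1.09), except that EIF2AK2 turned to -0.21 under the GC correction. The median was 0.42 with normexp, where EIF2AK3 was at 0.18, and 0.74 with the GC correction. EIF2AK1 and EIF2AK2 lay 1.65 and 2.17 above total RNA replicate 2. For EIF2AK2, 1 of its 2 probes was not above background there (-2.62), so its difference rests in part on background. EIF2AK3 and EIF2AK4 were not above background on that array, so their differences from it are set against background, and EIF2AK3 lay at -0.12 with normexp. Against replicate 1 they parted. EIF2AK1 (HRI), the kinase that senses lack of heme and mitochondrial stress, had 4.18 and 4.57 on the TIA1 RIP arrays against 3.03 and 2.73 on total RNA. Its TIA1 RIP values lay 1.15 to 1.84 above every total RNA value, a difference of 1.496 ± 0.78 (limma SE, unadjusted p = 0.0951, adjusted p = 0.776). EIF2AK1 was the highest of the 41 members against replicate 1 (1.35), where 95.0% of genes in its brightness decile lay lower. EIF2AK3 (PERK), the sensor of unfolded proteins in the endoplasmic reticulum, was also without overlap, with -1.83 and -0.92 against -2.06 and -3.42, but was not above background on total RNA replicate 2.

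EIF2AK2 (PKR), which binds double-stranded RNA, had 1.18 and 0.51 against 1.37 and -1.33. EIF2AK4 (GCN2), the sensor of uncharged tRNA, had 1.25 and 1.19 against 2.09 and -1.05 and was not above background on replicate 2. Both lay below total RNA replicate 1 on both TIA1 RIP arrays, by -0.53 and -0.86 on the mean, and above replicate 2. The groups overlapped for both.

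The kinases' substrate, EIF2S1 (eIF2 alpha), had 1.20 and 0.84 on the TIA1 RIP arrays against 1.21 and -1.39, and EIF2S2 (eIF2 beta) had -0.76 and -0.38 against -0.22 and -3.13. Neither was above background on total RNA replicate 2. Their differences on the means were both 1.11, but 0.73 and 0.11 with normexp and 0.06 and 0.67 with the GC correction, and they lay at -0.19 and -0.35 against replicate 1. EIF2S3 (eIF2 gamma), whose transcript has a TOP start, was not measured.

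The exchange factor eIF2B is the target that phosphorylated eIF2 blocks. Of its 5 genes 4 were tested, with a median of -0.94 on the means, -0.90 against replicate 1 and -0.69 against replicate 2. With normexp the median was -0.58 on the means and -0.07 against replicate 2, and with the GC correction -0.57 and -0.24. The median of all genes against replicate 2 was -0.29, or -0.33 with normexp and 0.11 with the GC correction. The eIF2B median against replicate 2 thus lay above that of all genes with normexp. It did so too over probes detected on all arrays (-0.69 and -0.85). EIF2B3, EIF2B4 and EIF2B5, of which EIF2B5 encodes the catalytic subunit, were lower in TIA1 RIP without overlap, and their 3′ UTRs held no run of 5 U. EIF2B4 was the lowest on the means, with 1.03 and 0.66 against 2.03 and 2.19. EIF2B3 had 1.37 and 0.09 against 2.52 and 1.38, where the nearest values of the groups were almost the same, and all 3 of its probes were lower against replicate 1 (-1.47 to -2.06). EIF2B5 had 2.04 and 1.69 against 2.48 and 2.60. EIF2B1 was the highest, with 3.60 and 2.53 against 3.001 and 1.56. The 3 usable values of EIF2B2 were 3.10 on TIA1 RIP replicate 2 and 3.41 and 4.05 on the total RNA arrays.

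Among the factors that guide the choice of the start codon, EIF1 and its paralog EIF1B lay on opposite sides. EIF1 had 7.42 and 7.44 against 8.55 and 9.36, a difference of -1.52 ± 0.80 (limma SE, adjusted p = 0.776). EIF1B had 2.02 and 2.01 against 1.31 and 1.17, a difference of 0.77. Neither pair of groups overlapped. Under quantile normalization the value of EIF1 turned to 0.26, the same side as EIF1B (0.90). With the GC correction EIF1B fell to 0.12 and EIF1 was at -1.74. EIF1AX had 2.75 and 1.81 against 2.67 and -0.22, with overlap, and a difference on the means of 1.05 that turned to -0.20 with the GC correction. Of its 3 probes, 1 was not above background on total RNA replicate 2 (-3.28).

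Of the factors that act as the ribosomal subunits join and after, EIF5B, the GTPase of subunit joining, was the highest, with -0.19 and -0.16 against -0.50 and -3.24. It lay above both total RNA arrays, by 0.32 against replicate 1, and was not above background on replicate 2. EIF6, which keeps the large subunit apart until it matures, was the lowest with 4.45 and 3.87 against 4.85 and 6.65, without overlap. EIF5A, which helps the ribosome through difficult peptide bonds, had 4.03 and 3.20 against 3.80 and 4.804. EIF5, the GTPase activator of eIF2, was at -2.78 and -4.54 against -0.58 and -3.30, above background only on the first array of each group.

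The difference between the total RNA arrays followed base composition. Of the 19 members with a GC content under 45%, 18 were higher on total RNA replicate 1 than on replicate 2, with a median of 2.33, while the 22 members with more GC had a median of -0.14. Over all genes, 3405 of 4058 under 45% GC were higher on replicate 1, with a median of 1.57. Those with more GC had a median of -1.05, so the members lay higher than all genes in both classes. Over the 41 members the Pearson correlation of GC content with this difference was -0.71 (Spearman -0.75), and over 11672 genes it was -0.69 (Spearman -0.71). The same held within eIF3 (r = -0.73 over 13 genes): the 6 subunit genes under 45% GC had a median of 3.38 and the 7 others of -0.60. These are correlations across genes on the same arrays, and genes are not independent replicates. EIF3E (37.2% GC), EIF3J (37.7%) and EIF4G2 (43.4%) lay above total RNA replicate 2 and below replicate 1 by the mean of the TIA1 RIP arrays, as did EIF4G3 (46.3%) and EIF2AK4 (47.5%), whereas EIF3C (54.8%), EIF3G (60.2%), EIF4EBP1 (62.9%) and EIF6 (57.3%) were higher on replicate 2. The part of GC content in the differences between TIA1 RIP and total RNA was not tested beyond the corrected values given here. Against total RNA replicate 1 the correlation with GC content was -0.32 over the members and -0.06 over all genes. After a correction of each array for GC content the eIF3 median against total RNA replicate 1 was -1.09, and the eIF4 median -0.10.

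**Figure D3:**
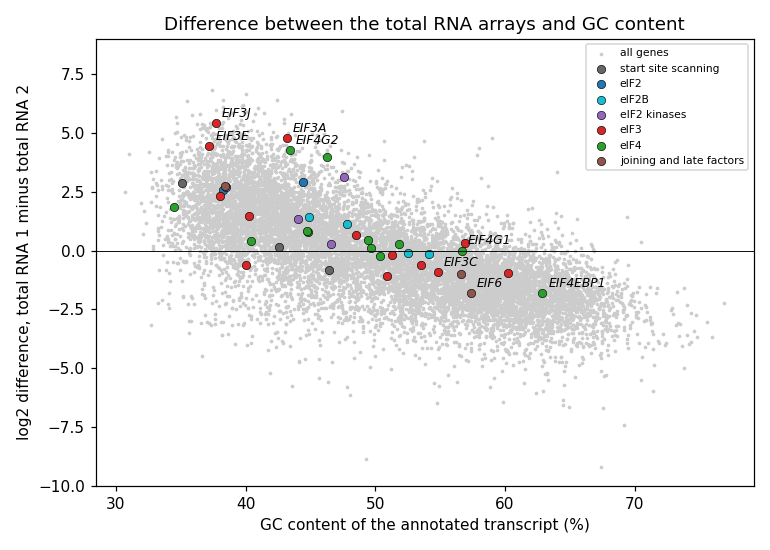
The horizontal axis gives the GC content of the annotated transcript in percent and the vertical axis the log2 difference between the total RNA arrays, replicate 1 minus replicate 2. Grey points are all genes with an annotated transcript and coloured points the members by role. Members under 45% GC lie above 0 with 1 exception (18 of 19), as do 3405 of 4058 genes under 45% GC. The coloured points fall with GC content as the grey ones do, but lie higher. Their medians are 2.33 under 45% GC and -0.14 at 45% or more, beside 1.57 and -1.05 over all genes.

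Brightness moved with the difference from total RNA replicate 1, and bright genes lay lower on the whole. The median difference was 0.66 in the dimmest decile of all genes and -0.31 in the brightest, and 8 of the 13 eIF3 genes lay in the brightest. Relative to genes of the same brightness decile, a comparison added after the data had been seen, the eIF3 median was -0.79 instead of -1.02, and 12 of 13 genes lay below the median of their decile, the exception being EIF3E at 0.03. The eIF4 median became 0.17, with 5 of 12 below. The eIF2B median was -0.91 and that of the kinases was -0.04. Over all 41 members the median was -0.38, with 28 below their decile. EIF2B3 (lower than all but 2.00% of its decile), EIF3A (2.61%), EIF3C (3.38%) and EIF4G1 (3.38%) stood nearest the lower end of their deciles.

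**Figure D4:**
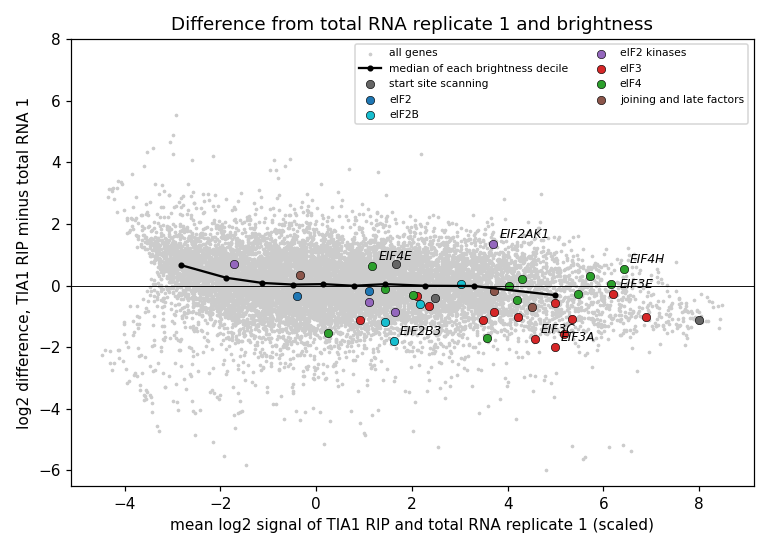
The horizontal axis is the mean log2 signal of TIA1 RIP and total RNA replicate 1 after scaling, and the vertical axis the log2 difference between them. Grey points are all genes, the black line joins the medians of the brightness deciles (0.66 at the dim end, -0.31 at the bright end), and coloured points are the members by role. Of the 13 red eIF3 points 12 lie below the median of their decile, and EIF2AK1 lies well above it.

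The 11 measured members with a TOP start had a median of -0.86 against total RNA replicate 1, with 10 of 11 below it on both TIA1 RIP arrays. The 30 members without one had a median of -0.35, with 15 of 30, and 35.5% of all genes lay so. Against replicate 2 the medians of these sets were 0.45 and 0.66, where that of all genes was -0.29. Most of the first set were eIF3 genes. Within eIF3 the 9 genes with a TOP start had a median of -1.02 against replicate 1 and the 4 without one of -1.06. Against replicate 2 the medians of these eIF3 sets parted, at -0.17 and -0.997, as they did on the means, at -0.51 and -1.03. The eIF4 genes with a TOP start, EIF4A2 and EIF4B, lay at 0.31 and -0.10 against replicate 1. The split rests on annotated starts, and EIF3G, which began with C but fell short of a run of 5, counted as without. Over all 638 measured genes with a TOP start the median against replicate 1 was -0.01, near that of all genes (0.07). Of these 638 genes, 255 lay below replicate 1 on both TIA1 RIP arrays. The share of U in the 3′ UTR correlated with the difference from total RNA replicate 1 at r = 0.30 over the 41 members (Spearman 0.37) and at r = 0.08 over 11627 genes, given as a description. Members with a long run such as EIF3A (15 U) and EIF4E (17 U) lay far apart, at -1.99 and 0.64 against replicate 1.

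The study took its targets by a difference of more than 2.5-fold from GAPDH, required both on the arrays and in sequencing of precipitated RNA. The sequencing was not used here, so the counts below rest on the arrays alone and are not the study's target list. GAPDH had 6.49 and 6.69 on the TIA1 RIP arrays against 7.67 and 9.63 on the total RNA arrays. GAPDH itself lay lower in TIA1 RIP, and 72.4% of all genes were more than 2.5-fold above it on the means, as were 29 of the 41 members. No member was 2.5-fold below it, as were 1.62% of all genes. With the requirement that all 4 pairs of arrays pass, the members left were EIF1B, EIF2AK1, EIF2AK3 and EIF4H, 4 of 41 against 26.2% of all genes. The 12 members that did not pass on the means included 7 of the 13 eIF3 genes (EIF3B, EIF3C, EIF3D, EIF3F, EIF3G, EIF3I and EIF3K), but only EIF4G1 of the 12 eIF4 genes and none of the 4 kinases. The others were EIF1, EIF2B3, EIF2B4 and EIF6. The count rested on total RNA replicate 2: without that array 7 members passed, and 42.3% of all genes.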

How the data were processed

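RNA from anti-TIA1 immunoprecipitates and total RNA of KYSE180 cells were each measured on 2 single-colour arrays, which share 1 slide and 1 scan. The authors deposited the scanner output of Agilent Feature Extraction 10.7, which gives for each spot a processed signal intensity (background subtracted, linear scale), raw median intensities for spot and background, and other columns that hold flags. The deposited flags for uneven and deviant spots (299 to 382 spots an array) were used to leave spots out, and the flag for signal well above background to filter probes. No spot was saturated. The further analysis that the authors made in GeneSpring was not used here. Arrays carry no read depth, and 2 arrays per group limit the precision.

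The log2 intensity minus the 75th percentile of each array was averaged over the spots of a probe. Of 50599 probes, 34510 (68.2%) matched a gene symbol through their accession (RefSeq names and GENCODE transcripts on GRCh37, the build in the file headers). A probe was kept when a share of at least 0.5 of its spots was above background throughout 1 of the groups or both (20099 probes, 7 probes with no value on some array left out), and the kept probes of a symbol were averaged to give 13038 genes. lmFit and eBayes of limma 3.58.1 (R 4.3.3; Benjamini-Hochberg adjustment over all genes, threshold 0.05) compared TIA1 RIP with total RNA on all 4 arrays without a block, and the code was tested on simulated data. The distance from GAPDH was the log2 difference minus that of GAPDH, counted past 2.5-fold. Transcript length, GC content, start sites and 3′ UTRs came from 1 canonical GENCODE transcript per gene, and 11672 of the tested genes had one. A probe that was not above background on either array of a group gives only a bound.

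The members and all lists were chosen with earlier results of these data known. Every member is named. Values on all 4 arrays are given for the highest and lowest of each role group by the difference on the means, for paralogs, for the kinases and for members with probes that were not detected. Of the genes around the pathway, the highest and lowest pair of each list is named. The alternatives were normexp background correction (offset 50), quantile normalization, the 75th percentile over detected probes, no filter, only probes detected on all arrays, flagged spots kept, the brightest probe, a GC correction (loess, span 0.3), the replicate block, each array left out, and ACTB, the median of all genes or a 2-fold limit for the GAPDH count.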

Additional observations from a re-analysis of the deposited data

How the results depend on the processing

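No member was called under any alternative except without total RNA replicate 1, where limma called 12 members higher and 6 lower, and 1849 and 2050 of all genes. The lone remaining total RNA array was there assumed to vary like the TIA1 RIP arrays. Over the arrays left out in turn the counts called ranged from 0 to 12 (higher) and from 0 to 6 (lower), and the count past 2.5-fold over GAPDH from 7 (without total RNA replicate 2) to 35 (without total RNA replicate 1). That count was 19 under quantile normalization, 19 with the GC correction, with or without the replicate block, and 7 relative to the median of all genes. It was 24 relative to ACTB and 31 at 2-fold. The replicate numbers are not stated to pair the arrays (deviations from the group means of same-numbered arrays correlated at r = 0.453). With the replicate block limma called 57 genes higher and 299 lower but no member (lowest adjusted p = 0.156). A block for slide or scan was not run, since all arrays share 1 of each.

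The median of all genes was -0.04, and 0.26 under quantile normalization, 0.27 with the percentile over detected probes, -0.57 with no filter and -0.35 over probes detected on all arrays. On the means the eIF3 median lay below it under each of these. Against total RNA replicate 2 alone the eIF3 median was near that of all genes under quantile normalization (0.30 and 0.29). The same held over probes detected on all arrays (-0.84 and -0.85), and with normexp the eIF3 median lay 0.43 above that of all genes. Medians that moved by more than their spread included eIF3 under quantile normalization (-0.27), eIF4 under quantile normalization (0.82), the members over probes detected on all arrays (-0.42), and those of eIF2B and eIF3 without TIA1 RIP replicate 2 (-0.54 and -0.39) and of the members without total RNA replicate 2 (-0.48), and the kinases against total RNA replicate 1 relative to their brightness decile (-0.041), an alternative chosen after seeing the data. With arrays left out in turn the medians ranged from -0.48 (without total RNA replicate 2) to 0.52 (without total RNA replicate 1) for the members, from -1.15 to -0.54 for eIF2B and from -1.02 to -0.39 for eIF3 (both highest without TIA1 RIP replicate 2), from -0.27 to 2.48 for eIF2, from 0.08 to 2.11 for the kinases and from -0.06 to 0.60 for eIF4. No value for eIF2 was left over probes detected on all arrays.

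Single members turned sign with normexp (EIF3H 0.21, EIF4A1 0.25, EIF4G3 -0.52), quantile normalization (EIF1 0.26, EIF3H 0.76, EIF4A1 0.58), the percentile over detected probes (EIF3H 0.022, EIF4A1 0.10), no filter (EIF3A -0.26, EIF4G3 -0.49), probes detected on all arrays (EIF4B -0.32), the brightest probe (EIF4B -0.29) and the GC correction, alike with the replicate block (EIF1AX -0.20, EIF2AK2 -0.21, EIF3A -0.19, EIF3M -0.46, EIF4A2 -0.34, EIF4B -0.092, EIF4EBP1 0.30, EIF4EBP2 -0.29). The cause was not tested.
With arrays left out in turn, values that turned sign ranged as follows, in most cases through total RNA replicate 2: EIF1AX (-0.40 to 2.49), EIF2AK2 (-0.53 to 2.17), EIF2AK4 (-0.86 to 2.27), EIF2S1 (-0.19 to 2.40), EIF2S2 (-0.35 to 2.56), EIF3A (-1.99 to 2.77), EIF3E (-0.28 to 4.15), EIF3H (-1.02 to 0.45), EIF3J (-0.36 to 5.06), EIF3M (-0.57 to 1.77), EIF4A1 (-0.57 to 0.15), EIF4B (-0.10 to 0.69), EIF4EBP1 (-1.59 to 0.22), EIF4EBP2 (-0.31 to 0.52), EIF4G2 (-0.017 to 4.26), EIF4G3 (-1.54 to 2.44).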

Other observations

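Other genes around the pathway were described by lists, of which none had a gene called by limma at an adjusted p of 0.05. Of 6 genes for poly(A) binding proteins and their partners, all measured, the median difference between TIA1 RIP and total RNA was 0.99 for the means, or 0.35 against replicate 1 of total RNA. PAIP2, which keeps poly(A) binding protein off the mRNA, had 3.49 and 3.78 on the TIA1 RIP arrays against 2.26 and 0.20 on the total RNA arrays, above both of them (difference 2.41), and PAIP1, which joins poly(A) binding protein to eIF4A and eIF3, had 3.15 and 2.89 against 2.24 and -0.94 (difference 2.38), also above both. The lowest were PABPC4 (-0.26) and PAIP2B (0.58), the latter at 1.11 against replicate 1 and 0.05 against replicate 2.

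Of 9 kinases and brakes of initiation the median was -0.91 on the means and -0.23 against replicate 1. MTOR, the kinase that phosphorylates the inhibitors of eIF4E, had -2.01 and -1.98 against 0.16 and 0.39, below both total RNA arrays (difference -2.27), and RPS6KB2, a kinase of ribosomal protein S6, had 5.01 and 4.91 against 6.06 and 8.36 (difference -2.25). The highest were PDCD4, an inhibitor of eIF4A (1.39), and MKNK1, a kinase of eIF4E (1.14, or 0.52 against replicate 1 and 1.76 against replicate 2). PDCD4 was dim, with -2.93 and -0.77 on the TIA1 RIP arrays against -3.05 and -3.43. Its difference rested mostly on TIA1 RIP replicate 2, which lay 2.27 above total RNA replicate 1, where TIA1 RIP replicate 1 lay 0.12 above. Among 14 genes of the response to eIF2 phosphorylation the median was 0.06 on the means and -0.0012 against replicate 1. NCK1, an adaptor linked to eIF2 dephosphorylation, was the highest, with 2.38 and 2.71 against 1.57 and -0.90, followed by IMPACT, an inhibitor of GCN2 (1.51, or 0.97 against replicate 1 and 2.05 against replicate 2). GCN1, which GCN2 needs as a partner, was the lowest, with 1.85 and 1.68 against 4.43 and 6.20 (difference -3.55, adjusted p = 0.639 by limma), followed by TRIB3 (-1.65, or -0.49 against replicate 1 and -2.82 against replicate 2). Of 15 further initiation factors 11 were measured, with a median of 0.51 on the means and -0.33 against replicate 1. BZW1, an eIF5 mimic (2.09), and ABCE1, a ribosome recycling factor (1.77), were the highest, but both rested on replicate 2 of total RNA (4.16 and 3.35), with 0.02 and 0.19 against replicate 1. The lowest were EIF4ENIF1, a partner of eIF4E (-0.75), and MCTS1, which acts in recycling and reinitiation (-0.65, or -1.16 against replicate 1 and -0.14 against replicate 2).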
